A study of Mus musculus with 8 samples.

Results

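The genes described here are 37 mouse interferon response genes, a fixed list of symbols that includes the Ifit, Oas, Mx and Gbp families, cytosolic sensors of viral RNA and the transcription factors Stat2, Irf7 and Irf9. They were found on the array by taking the probesets, each of which reads a part of a gene, whose platform annotation names exactly 1 of these symbols. All 37 of the 37 listed genes were found, through 372 of 212097 probesets with a single symbol, and all 37 were bright enough to be tested among 16050 of the array's 20416 genes. Another 9 probesets that name 1 of these genes together with a second gene were left out.

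Interferons are cytokines, and cells release those of type I when they sense foreign or displaced nucleic acid. Type I interferon binds the Ifnar1 and Ifnar2 receptor chains, the kinases Jak1 and Tyk2 phosphorylate Stat2, and it joins Irf9 in a complex that binds a DNA element of paired GAAA motifs, the interferon-stimulated response element, before many antiviral genes. Interferon gamma acts through the Ifngr1 and Ifngr2 chains, and in mouse cells it is a strong inducer of the guanylate-binding proteins and the immunity-related GTPases.

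RNA was measured on 8 Affymetrix arrays of mouse pro-B cells, sorted B-cell precursors from bone marrow, in 4 groups of 2 arrays each. The control cells are labelled Setdb1 C/C and the deleted cells Setdb1 Δ/Δ. Setdb1 encodes a histone H3 lysine 9 methyltransferase, and the series title concerns its part in silencing retroviruses in B lymphocytes. Marrow cells of both genotypes carry no Bcl2 transgene, while cells of both genotypes kept in interleukin-7 for 4 days carry one, so culture and transgene cannot be told apart. A growth protocol given for every sample mentions the culture also for the marrow cells, whereas the design text has these cells come straight from the marrow. The Cre driver of the deletion, the transgene's promoter and the age of the animals are not given in the sources used here. The labels do not say whether the samples of a group come from different animals or cultures. The p-values therefore rest on the spread between these samples alone, and that spread may be technical.

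All values are deposited log2 values, in which 1 unit is a doubling, and a gene's value is a median polish over its probesets. Pairs of values are given in the order array 1, array 2. Differences between groups are on the log2 scale and carry a standard error (SE) from a limma fit over all genes, and a gene is said to have risen or fallen where its Benjamini-Hochberg adjusted p over all genes tested is under 0.05. With 2 arrays against 2, an exact permutation test of a single value cannot go below 0.333, and the small number of arrays limits the precision of every value. The arrays' medians over all genes lay between 5.25 and 5.33. Over all tested genes, the arrays of a group correlated at 0.945 to 0.988, and the correlation was lowest between the marrow controls. Setdb1 itself read 7.02 and 6.67 in the marrow controls, 6.74 and 6.53 in the marrow cells labelled deleted, 6.84 and 6.45 in the cultured controls and 6.66 and 6.99 in the cultured cells labelled deleted, a difference over both conditions of -0.01 (SE 0.15). Where its 23 probesets lie relative to the deleted part of the gene is not given in the sources used here, and a probeset outside that part checks nothing. This value therefore does not settle the genotype labels.

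The labelled cell type was read against its markers. Of 11 pro-B markers, 10 were on the array under a single symbol, and none of them was dim in all arrays. Their mean log2 value was 9.60 and 10.27 in the marrow controls and 10.35 and 10.22 after deletion in marrow. In culture it was 9.72 and 9.92 in the controls and 9.56 and 9.37 after deletion. None of the 10 passed the test in either condition. At an unadjusted limma p under 0.05, 6 were lower and 2 higher after deletion in culture, beside 7.35% and 7.65% of all genes. In marrow 1 was lower and 2 higher, beside 5.2% and 6.64%. Markers of other cells were measured too. Of 10 monocyte and macrophage markers, 9 were on the array, none was dim in all arrays, and their mean value was 9.05 and 7.93 in the marrow controls, 7.14 and 6.92 after deletion in marrow, 5.33 and 6.88 in the cultured controls and 6.47 and 7.57 after deletion in culture. Marrow control array 1 was the highest on this list. Emr1, a macrophage surface receptor, read 10.03 there against 6.65 in marrow control array 2. For 3 of the 9 markers, among them Ccr2 (8.82 and 9.65), marrow control array 2 read higher than array 1. The mean of 9 of 10 neutrophil markers was 10.01 to 10.58 in the 4 marrow arrays, 4.73 and 8.37 in the cultured controls and 5.56 and 8.93 after deletion in culture. Both culture arrays numbered 2 thus stood above both numbered 1 on the neutrophil list. For 9 of 10 plasmacytoid dendritic cell markers, which include Bst2 of the list, the mean was 6.92 and 7.31 in the marrow controls and 6.75 and 6.65 after deletion. In culture it was 7.46 and 7.73 in the controls and 7.51 and 7.66 after deletion.

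Promoter sequence was looked at first, as a feature that the choice of the genes did not use. RefSeq promoter windows of assembly GRCm38.p6, which run from 250 bases before to 50 bases after a gene's start, were given for 29 of the 37 genes (matched by symbol) and not for Oas2, Mx1, Mx2, Dhx58, Usp18, Zbp1, Rtp4 and Parp14. The core of the interferon-stimulated response element, searched as GAAA and GAAA separated by any 2 bases on either strand with overlaps allowed, was in 18 of 34 windows of the list (52.9%) and in 3.4% of all 32851 windows. The interferon gamma activated site, searched as TTC and GAA separated by any 3 bases, was in 7 of the 34 windows (20.6%) and in 8.3% of all windows. A match is a description of the letters and not evidence of a site in use. Irf7, Irf9, Ifi44, Isg20 and Oasl2, which are described below, had no core of the response element in their windows. Ddx58 had 1, at position 3, past the gene's start. The stretches below are examples picked from genes of the list with a core before the start. The first 6 are transcription factor and effector genes and the last 2 belong to the interferon-induced GTPases. All stretches are read 5′ to 3′ on the gene's strand, with the core in capitals on whichever strand it lies.

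Stat2: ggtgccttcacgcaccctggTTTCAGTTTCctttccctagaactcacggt
Isg15: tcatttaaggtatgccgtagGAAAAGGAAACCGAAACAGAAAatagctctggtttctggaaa
Oas1a: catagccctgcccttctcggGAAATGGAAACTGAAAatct
Oas1g: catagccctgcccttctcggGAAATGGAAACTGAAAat
Ifit3: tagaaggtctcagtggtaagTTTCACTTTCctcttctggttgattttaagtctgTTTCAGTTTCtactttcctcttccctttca
Rsad2: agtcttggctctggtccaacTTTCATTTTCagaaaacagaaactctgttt
Gbp3: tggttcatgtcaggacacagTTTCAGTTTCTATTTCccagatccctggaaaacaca
Irgm1: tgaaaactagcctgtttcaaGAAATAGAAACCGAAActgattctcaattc

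The Isg15 stretch (chr4:156200855-156200916, minus strand) holds 3 overlapping cores, the first at position -78 from the gene's start. The Stat2 stretch (chr10:128270256-128270305, plus strand) holds 1, at position -222, and that of Rsad2 (chr12:26456543-26456592, minus strand) holds 1, at position -120. Ifit3 (chr19:34583353-34583436, plus strand) has 2 separate cores. Gbp3 (chr3:142559979-142560034, plus strand) and Irgm1 (chr11:48871421-48871470, minus strand) have 2 overlapping cores each, close to the start. Oas1a (chr5:120907526-120907565, minus strand) and Oas1g (chr5:120887614-120887651, minus strand) carry the same doubled core, and their aligned promoters were 83.8% identical, as between near copies of a gene. Signals of such copies may not be fully separated by the array's probes: Oas1g rests on 1 probeset and Ifit3 on 2, and 8 probesets name Oas1a and Oas1g together and were left out. Values of the Oas1, Ifit and Gbp families are uncertain for that reason.

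In marrow, deletion of Setdb1 was accompanied by lower values of most interferon response genes, but no single gene passed the test. The fitted difference was negative for 29 of the 37 and positive for 8, with a median of -0.46 and a range from -1.92 (Ifit3) to 0.36 (Oasl1), while the median of all genes tested was 0.04. None of the 37 rose or fell (limma, adjusted p under 0.05, met by 0.131% of all genes in either direction). At an unadjusted p under 0.05, 11 of the 37 were lower and 0 higher, against 5.2% of all genes lower and 6.64% higher. Both deleted arrays lay below both controls for 17 of the 37 and above them for 3, where 17.6% and 27.3% of all genes did so.

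In culture the sign was mostly the other way, and again no gene passed. The difference was positive for 25 of the 37 and negative for 12, with a median of 0.24 against 0.01 for all genes. None rose or fell, where 1.45% of all genes did. At an unadjusted p under 0.05, 4 were higher and 1 was lower, against 7.65% and 7.35% of all genes. Both deleted arrays lay above both controls for 9 of the 37 and below them for 5, beside 22.4% and 21.8% of all genes. This positive median rested on 1 array: without deleted culture array 2 it was -0.18, with 24 genes negative and 13 positive. That array read the highest of all 8 for 16 of the 37, against 15.1% of all genes, and it read above deleted culture array 1 for 34 of the 37.

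The difference between the deletion effects, culture minus marrow, had a median of 0.52 over the list and -0.04 over all genes. No gene of the list passed the test, and 0% of all genes did. At an unadjusted p under 0.05, 12 of the 37 were positive and 0 negative, beside 3.76% and 3.82% of all genes. Marrow control array 1 and deleted culture array 2 often stood apart, and values without both of them, an alternative chosen after the data were seen, are given below as values in the other 6 arrays. There the median of the difference between the effects was 0.17.

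Averaged over marrow and culture, the median was -0.04, against 0.02 over all genes. Of the 37, 1 fell and 0 rose, where 2.86% of all genes passed in either direction. At an unadjusted p under 0.05, 8 were lower and 2 higher, beside 7.51% and 10.4% of all genes. Isg15, Oas1g, Mx1, Ddx58 and Dhx58 lay below both controls in marrow and in culture, which is 5 of the 37 beside 6.26% of all genes, and 0 of the 37 lay above both controls in each condition, beside 9.31%. The 2 deletion contrasts share no array, and this mean is made from both of them.

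**Figure D1:**
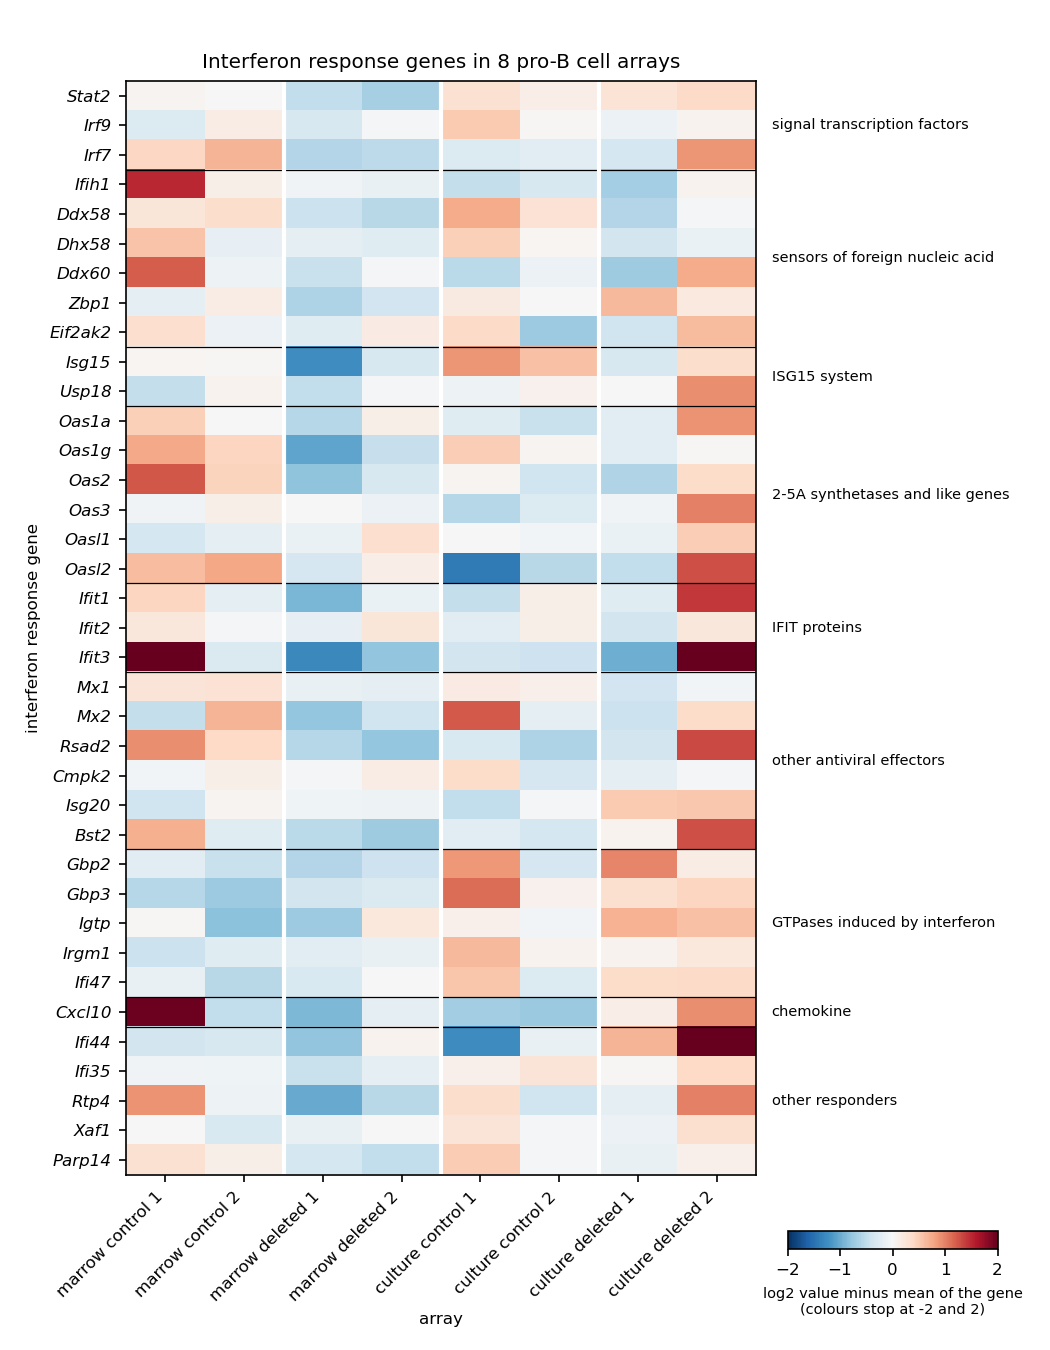
Log2 value of each of the 37 interferon response genes minus the gene's mean over the 8 arrays, with genes in rows by role and arrays in columns by group. Red stands for values above the gene's mean and blue for values below it, and the colours stop at -2 and 2. Deleted marrow array 1 is the lowest array for 15 genes, and deleted culture array 2 is the highest for 16.

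**Figure D2:**
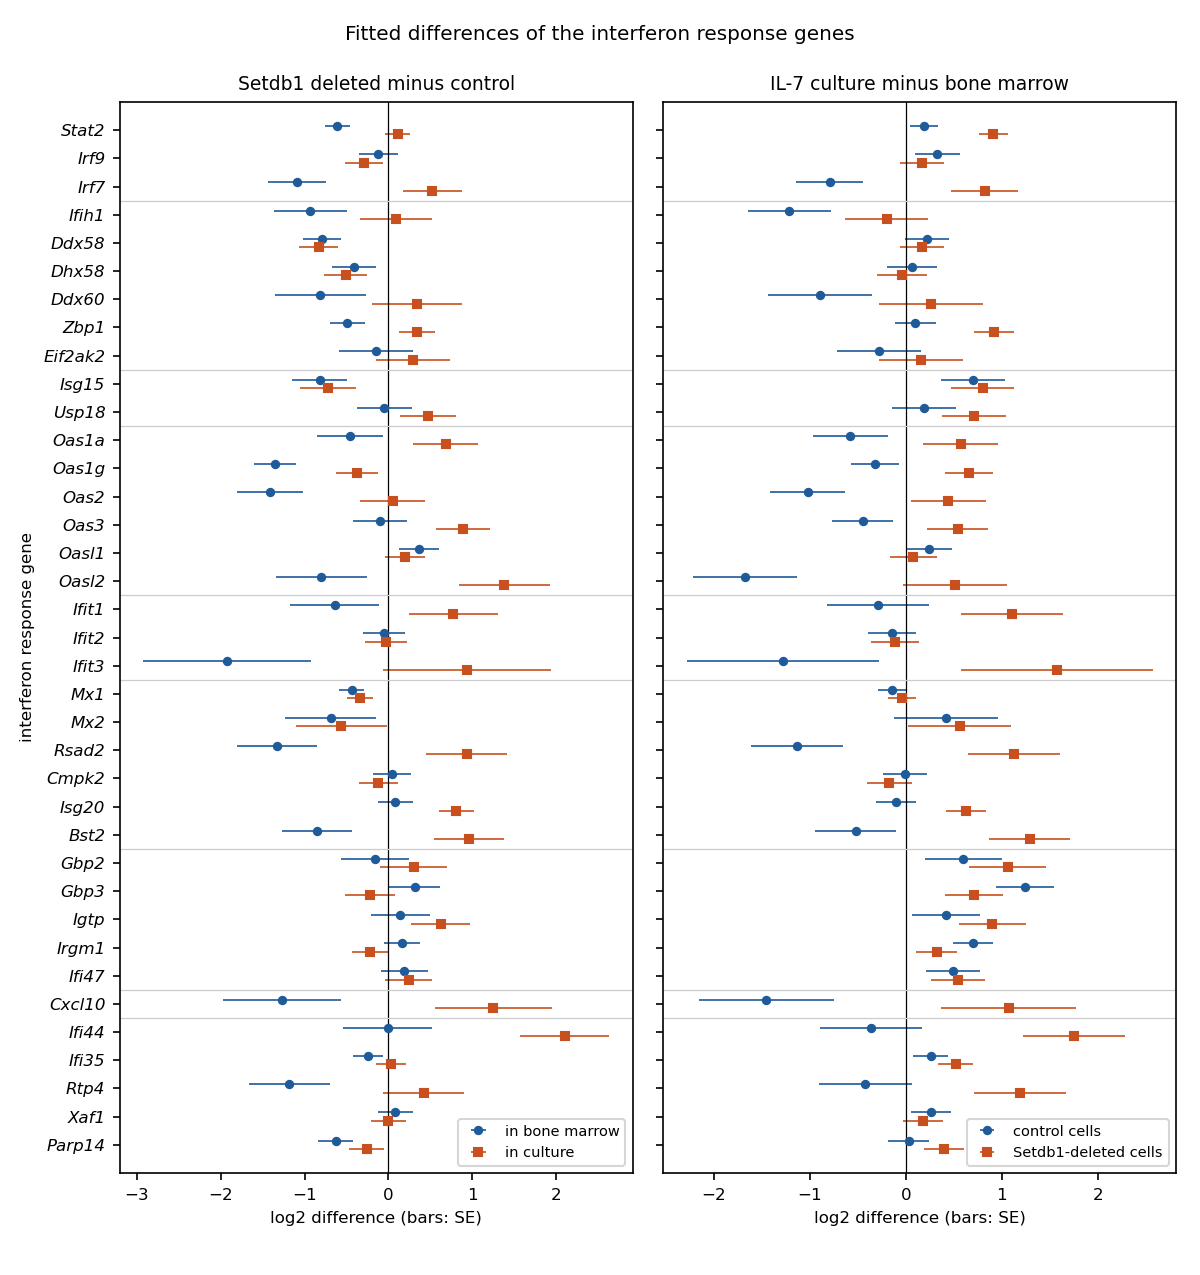
Fitted log2 differences of the 37 genes with the standard error as bars. The left panel shows deleted minus control cells in marrow (blue) and in culture (orange), and the right panel shows culture minus marrow in control (blue) and deleted cells (orange). In marrow 29 of the 37 genes lie left of 0, and in culture 25 lie right of it.

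Of the 3 transcription factors that carry the interferon signal, 0 passed the test for deletion, and Stat2 and Irf7 had marrow groups that did not overlap. Stat2, which joins the receptor's signal to the response element, read 7.22 and 7.16 in the marrow controls, 6.67 and 6.49 after deletion in marrow, 7.46 and 7.30 in the cultured controls and 7.44 and 7.54 after deletion in culture. The deleted marrow arrays were the 2 lowest of the 8, and the cultured groups overlapped. The difference was -0.61 in marrow (SE 0.15, adjusted p = 0.185) and 0.11 in culture (SE 0.15, adjusted p = 0.809), and the difference between these was 0.72 (SE 0.21, adjusted p = 0.573). In 22 of its 27 probesets the deleted marrow cells read lower.

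Irf7, the factor that amplifies interferon production, read 6.57 and 6.84 in the marrow controls and 5.58 and 5.64 after deletion, and 5.89 and 5.93 in the cultured controls against 5.81 and 7.05 after deletion. The marrow groups did not overlap, whereas the deleted cultured arrays lay on either side of their controls and array 2 was the highest of all. The difference in marrow was -1.09 (SE 0.35, adjusted p = 0.304), and all 9 probesets read lower there. In culture it was 0.52 (SE 0.35, adjusted p = 0.561) and -0.10 without deleted culture array 2. In the other 6 arrays the marrow difference of Irf7 was -1.23 (SE 0.16, adjusted p = 0.0596). Irf9, the DNA-binding partner of Stat2, read 7.29 and 7.71 in the marrow controls, 7.24 and 7.52 after deletion, 8.09 and 7.58 in the cultured controls and 7.45 and 7.63 after deletion. Its groups overlapped in both conditions, at -0.12 in marrow and -0.29 in culture (SE 0.23 each). The signs of Irf9 in marrow and of Stat2 and Irf7 in culture turned under some alternatives.

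Among the sensors of foreign nucleic acid, all 6 read lower in the deleted marrow cells, with a median of -0.64. In the other 6 arrays 5 of them read lower, with a median of -0.19. Ddx58, which encodes the viral RNA sensor RIG-I, read 7.68 and 7.79 in the marrow controls, 7.01 and 6.89 after deletion, 8.18 and 7.73 in the cultured controls and 6.85 and 7.40 after deletion. Every deleted array lay below every control array. Over both conditions Ddx58 fell by 0.81 (SE 0.16, limma adjusted p = 0.047), the only call in the list for deletion, with -0.79 in marrow and -0.83 in culture (SE 0.23 each, adjusted p = 0.257 and 0.15). In 19 of its 20 probesets the deleted cells read lower in marrow, and in 19 of 20 in culture. The call is close to the threshold: it was lost without any 1 of the 8 arrays (adjusted p = 0.0546 to 0.197, difference -0.94 to -0.67), with the mean of probesets in place of the median polish, and with no filter on dim genes.

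Dhx58, which encodes a relative of RIG-I that tunes its signal, differed by -0.41 in marrow and -0.51 in culture (SE 0.26 each, adjusted p = 0.599 and 0.424), and its groups did not overlap in either condition. Its marrow difference rested on marrow control array 1 and was -0.04 in the other 6 arrays. Ifih1, which encodes the long double-stranded RNA sensor MDA5, read 6.83 and 5.43 in the marrow controls, 5.25 and 5.16 after deletion, 4.84 and 5.0 in the cultured controls and 4.63 and 5.39 after deletion. Marrow control array 1 stood far above all other arrays, and the difference in marrow was -0.93 (SE 0.43, adjusted p = 0.454) over all arrays and -0.23 in the other 6. Zbp1, a sensor of left-handed nucleic acid, read 6.47 and 6.80 in the marrow controls, 6.03 and 6.27 after deletion, 6.83 and 6.64 in the cultured controls and 7.29 and 6.85 after deletion. The deleted arrays were the lower ones in marrow and the higher ones in culture, with differences of -0.49 and 0.34 (SE 0.21 each, adjusted p = 0.42 and 0.512). All 8 probesets of Zbp1 read lower in deleted marrow cells, while in culture 5 read higher and 3 lower. Ddx60 and Eif2ak2, which encodes the kinase PKR that stops translation on double-stranded RNA, overlapped between genotypes in both conditions.

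Isg15, a ubiquitin-like protein that is attached to other proteins, read 6.01 and 6.0 in the marrow controls, 4.73 and 5.65 after deletion, 6.86 and 6.55 in the cultured controls and 5.65 and 6.32 after deletion. Deleted cells were lower in both conditions with no overlap, and all 3 probesets read lower in each. The difference was -0.82 in marrow and -0.72 in culture (SE 0.33 each, adjusted p = 0.391 and 0.363), and -0.77 over both (SE 0.23, adjusted p = 0.143). Usp18, the protease that removes Isg15 and dampens the receptor, read -0.05 in marrow and 0.47 in culture (SE 0.33 each), and -0.32 and -0.01 in the other 6 arrays.

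The 2-5A synthetases make the activator of RNase L, and they were grouped here with Oas-like genes. Of these 6 genes, 5 read lower in deleted marrow cells and 5 higher in deleted cultured cells. In the other 6 arrays these counts were 5 of 6 and 3 of 6. Oas2 read 7.83 and 7.03 in the marrow controls, 5.78 and 6.26 after deletion, 6.64 and 6.18 in the cultured controls and 5.98 and 6.95 after deletion. The marrow groups did not overlap and the cultured groups did, with differences of -1.41 (SE 0.39, adjusted p = 0.239) and 0.05 (SE 0.39, adjusted p = 0.973). Oas1g, whose single probeset read 7.74 and 7.41 in the marrow controls and 5.92 and 6.52 after deletion, differed by -1.35 in marrow (SE 0.25, adjusted p = 0.117) and by -0.86 over both conditions (SE 0.18, adjusted p = 0.0544). Its near copy Oas1a differed by -0.46 in marrow and by 0.68 in culture (SE 0.39 each), and by -0.23 and 0.12 in the other 6 arrays.

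Oas3 read 5.73 and 5.91 in the marrow controls, 5.78 and 5.67 after deletion, 5.23 and 5.52 in the cultured controls and 5.72 and 6.80 after deletion. The marrow arrays lay close together, and in culture both deleted arrays were above both controls, a difference of 0.89 (SE 0.32, adjusted p = 0.255) that was 0.35 in the other 6 arrays. Oasl2, an Oas-like protein, read 6.28 and 6.43 in the marrow controls, 5.32 and 5.79 after deletion, 4.25 and 5.11 in the cultured controls and 5.17 and 6.95 after deletion. Deleted cells were lower in marrow and higher in culture, at -0.80 and 1.38 (SE 0.54 each, adjusted p = 0.617 and 0.288). The positive difference in culture was seen in all 9 probesets of Oasl2, and it was 0.49 in the other 6 arrays.

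The IFIT proteins bind viral RNA that lacks the cap methylation of the host. Ifit3 had the largest SE of the list in these contrasts and read 7.51 and 5.17 in the marrow controls, 4.17 and 4.67 after deletion, 5.08 and 5.04 in the cultured controls and 4.48 and 7.51 after deletion. Marrow control array 1 and deleted culture array 2 stood apart at the same value, and the other 6 arrays lay between 4.17 and 5.17. The marrow difference was -1.92 (SE 1.0, adjusted p = 0.503), and -0.75 (SE 0.24, adjusted p = 0.262) without these 2 arrays. Ifit1 read -0.64 in marrow and 0.77 in culture (SE 0.53 each), and -0.33 and -0.05 in the other 6 arrays. Ifit2 read -0.05 and -0.03 (SE 0.25 each).

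Among the other antiviral effectors, Rsad2, which encodes viperin, read 5.64 and 5.12 in the marrow controls, 4.15 and 3.94 after deletion, 4.41 and 4.09 in the cultured controls and 4.34 and 6.03 after deletion. The marrow groups did not overlap, all 9 probesets read lower there, and deleted culture array 2 was the highest array. Rsad2 differed by -1.33 in marrow and 0.93 in culture (SE 0.48 each, adjusted p = 0.357 and 0.43), and in the other 6 arrays it differed by -1.07 (SE 0.21, adjusted p = 0.133) and 0.08. Bst2, or tetherin, which holds budding virus at the cell surface, read 8.64 and 7.69 in the marrow controls, 7.40 and 7.23 after deletion, 7.71 and 7.58 in the cultured controls and 8.0 and 9.22 after deletion. Deleted cells were below both controls in marrow and above both in culture, at -0.85 and 0.96 (SE 0.42 each, adjusted p = 0.483 and 0.348). In the other 6 arrays these differences of Bst2 were -0.37 and 0.35.

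Mx1, a dynamin-like GTPase, was dim, at 4.44 and 4.47 in the marrow controls, 4.03 and 3.99 after deletion, 4.35 and 4.28 in the cultured controls and 3.80 and 4.13 after deletion. All deleted arrays lay below all controls, a difference over both conditions of -0.39 (SE 0.11, adjusted p = 0.116). Of the 10 probesets of Mx1, 9 read lower in deleted marrow cells, but in culture 5 read lower and 5 higher. Only 7 of the 10 were bright enough to be tested. Isg20, an exonuclease that degrades single-stranded RNA, read 5.92 and 6.37 in the marrow controls, 6.24 and 6.21 after deletion, 5.82 and 6.28 in the cultured controls and 6.85 and 6.86 after deletion. In culture the deleted arrays were the 2 highest of the 8 and lay close to each other, and the difference from the controls was 0.81 (SE 0.21, adjusted p = 0.131). Unlike the list's median, this value of Isg20 was nearly the same, 0.80, without deleted culture array 2. Cmpk2 and Mx2 overlapped between genotypes in both conditions.

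The list holds 5 GTPases of the guanylate-binding and immunity-related families, which act on the vacuoles of intracellular microbes. As a group these 5 did not read lower in the deleted marrow cells. Their median difference there was 0.16, with 4 of 5 positive, and in culture it was 0.24, with 3 of 5 positive. In neither condition did any of the 5 pass the test. Relatives outside the list mostly read lower in marrow: Iigp1 -1.07, Irgm2 -0.83, Gbp5 -0.49 and Gbp4 -0.06, but Gbp6 1.11. The marrow controls were far apart for Iigp1 (6.79 and 4.81) and Irgm2 (8.23 and 6.89). Gbp3 read 6.09 and 5.93 in the marrow controls, 6.29 and 6.37 after deletion, 7.77 and 6.75 in the cultured controls and 6.98 and 7.09 after deletion. All 4 cultured arrays lay above all 4 marrow arrays. Irgm1 read 7.60 and 7.80 in the marrow controls, 7.83 and 7.89 after deletion, 8.69 and 8.11 in the cultured controls and 8.11 and 8.25 after deletion, and again the culture arrays were the higher ones. Whether the 5 GTPases differ from the rest of the list in their response to deletion was not tested.

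Of the remaining responders, Ifi44, a cytoplasmic protein induced by type I interferon, had the largest positive difference in culture. It read 5.79 and 5.84 in the marrow controls, 5.37 and 6.23 after deletion, 4.89 and 6.01 in the cultured controls and 6.83 and 8.27 after deletion. The deleted cultured arrays were the 2 highest of the 8, at 2.10 above their controls (SE 0.53, adjusted p = 0.124), and 1.39 without deleted culture array 2. All 9 probesets of Ifi44 read higher in deleted cultured cells. Parp14, an ADP-ribosyltransferase, read 8.01 and 7.83 in the marrow controls, 7.36 and 7.22 after deletion, 8.22 and 7.68 in the cultured controls and 7.56 and 7.82 after deletion. Its marrow groups did not overlap, with a difference of -0.63 (SE 0.21, adjusted p = 0.321), and all 18 probesets read lower in marrow. Cxcl10, the chemokine that draws T cells, read 7.37 and 4.92 in the marrow controls and 4.52 and 5.23 after deletion. The marrow groups overlapped, and the difference of -1.27 (SE 0.70) was -0.05 in the other 6 arrays. In culture Cxcl10 read 4.71 and 4.67 in the controls and 5.54 and 6.34 after deletion, without overlap. That difference was 1.25 (SE 0.70, adjusted p = 0.468), and 0.85 in the other 6 arrays.

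**Figure D3:**
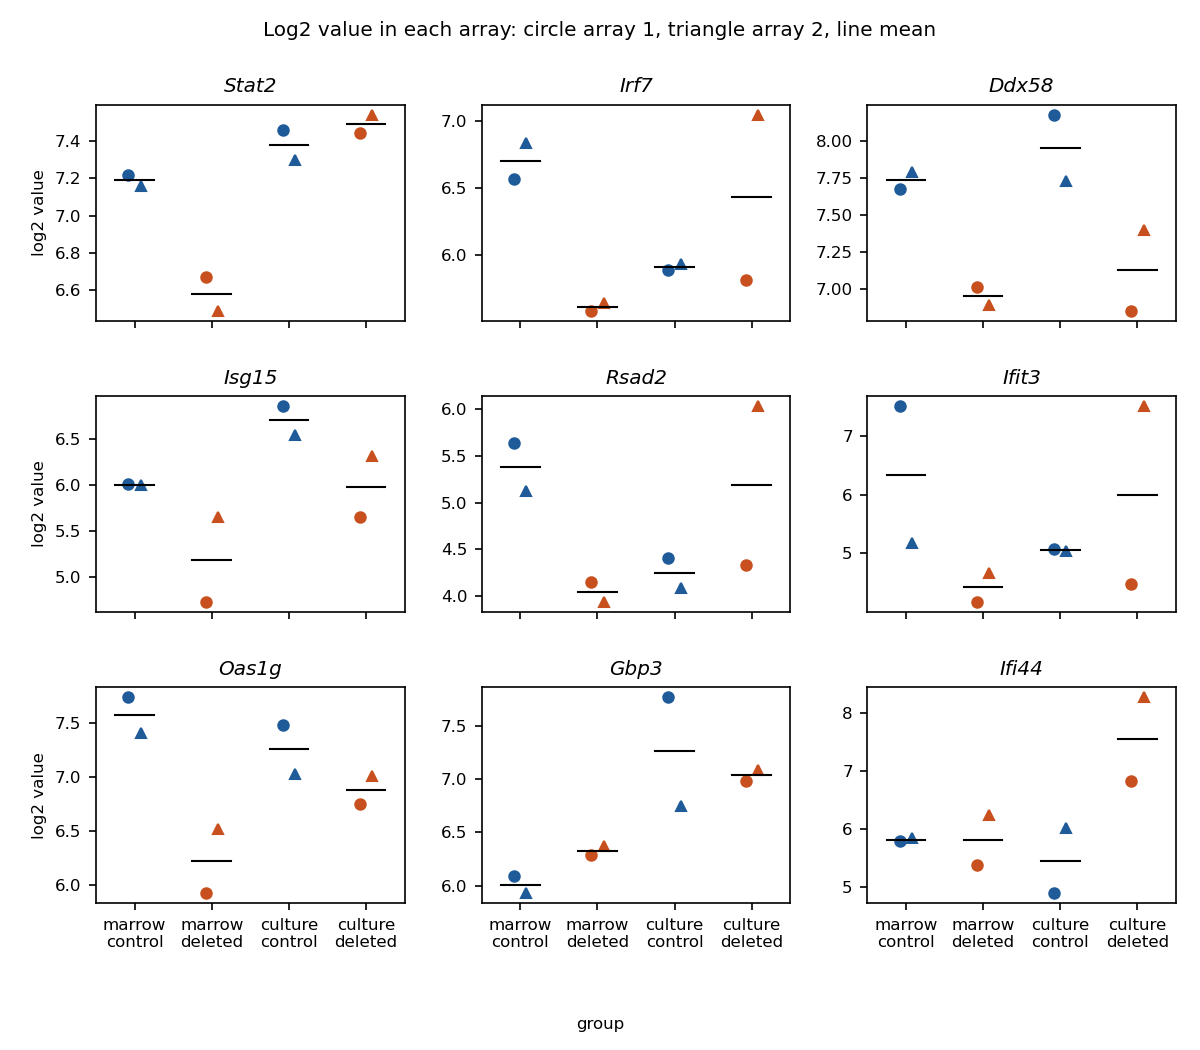
Log2 values of 9 interferon response genes in each of the 8 arrays, with circles for array 1, triangles for array 2, blue for controls, orange for deleted cells and a line at the mean of each group. Each panel has its own vertical axis, which does not start at 0. Ddx58 is lower in every deleted array, and Ifit3 is at 7.51 in marrow control array 1 and in deleted culture array 2.

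Probesets were also tested one by one, since they show whether parts of a gene read alike. Of the 357 probesets of the list that were bright enough, 0 passed in marrow, in culture, for the difference between the effects or over both conditions, where 0%, 0%, 0% and 0.0712% of all 176903 probesets passed. At an unadjusted p under 0.05, marrow had 37 lower and 0 higher (7.56% of all probesets in either direction), and culture had 8 lower and 26 higher (10.2%). The difference between the effects had 43 positive and 0 negative (6.55%), and the mean over both conditions had 31 lower and 15 higher (11.1%). In marrow 274 of the 357 probesets read lower in the deleted cells. Probesets of 1 gene share their RNA and are not independent.

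Monocyte and macrophage markers differed between the marrow groups in the same direction as the list. Relative to each gene's mean over the 8 arrays, the median of the 37 genes was 0.22 and 0 in the marrow controls, -0.45 and -0.18 after deletion in marrow, 0.11 and -0.06 in the cultured controls and -0.18 and 0.40 after deletion in culture. The median of the 9 markers was 1.84 and 0.68, -0.24 and -0.35, -1.69 and -0.25, and -0.54 and 0.37 in the same order. Both lists were higher in the marrow controls than in the deleted marrow cells, and higher in deleted culture array 2 than in deleted culture array 1. Within the deleted marrow pair they parted, with the interferon response genes higher in array 2 and the markers lower. In cultured control array 1 they parted too, since the markers were at their lowest there and the interferon response genes were not. The markers' own median difference was -1.44 in marrow and 1.03 in culture, and 0 of 9 passed the test in either. The neutrophil markers were also higher in array 2 than in array 1 of both cultured groups. In bulk samples, fewer cells of a type and less RNA per cell cannot be told apart, and the part of these cells in the results was not tested. Without marrow control array 1, the median of the 37 genes in marrow was -0.24, and 29 of 37 were negative, 27 of them also negative over all arrays.

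**Figure D4:**
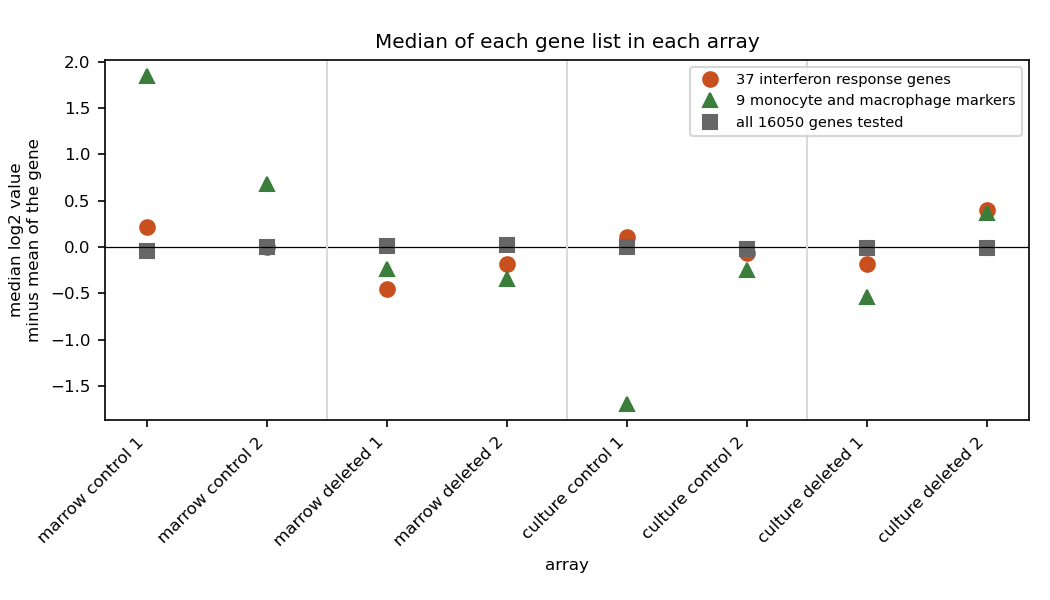
Median, in each of the 8 arrays, of the log2 values minus each gene's mean over the arrays, for the 37 interferon response genes (circles), 9 monocyte and macrophage markers (triangles) and all 16050 genes tested (squares). The markers reach 1.84 in marrow control array 1 and -1.69 in cultured control array 1, while the interferon response genes stay between -0.45 and 0.40.

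Culture was compared with marrow within each genotype, on the same arrays as above, so that these contrasts are not independent of the deletion contrasts. In control cells the list was mixed, with a median of -0.10, 17 genes positive and 20 negative. None of the 37 passed the test, where 0.305% of all genes did, and at an unadjusted p under 0.05 2 were higher and 3 lower, beside 6.64% and 6.51% of all genes. The culture arrays lay above the marrow arrays for 6 of the 37 and below them for 11, beside 22.7% and 19.7% of all genes. All 5 GTPases of the list were positive: Gbp3 read 1.24 above marrow (SE 0.30, adjusted p = 0.168) and Irgm1 0.70 above (SE 0.21, adjusted p = 0.237). Of the GTPases outside the list, Gbp4, Gbp5 and Gbp6 were positive (1.45, 0.38 and 1.38), and Iigp1 and Irgm2 were negative (-1.21 and -0.26). Oasl2 read -1.67 (SE 0.54, adjusted p = 0.269), Ifih1 -1.21 (SE 0.43, adjusted p = 0.307) and Oas2 -1.02 (SE 0.39, adjusted p = 0.332).

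In deleted cells, culture values were higher than marrow values for 32 of the 37 genes, with a median of 0.56 against -0.02 for all genes. Stat2 rose by 0.91 (SE 0.15, limma adjusted p = 0.041), and it was the 1 gene of 37 that passed, where 0.978% of all genes did. The call was lost without either deleted marrow array, either cultured control array or either deleted culture array (adjusted p = 0.0692 to 0.333), with the mean of probesets, and in a fit of only the 4 arrays compared. At an unadjusted p under 0.05, 14 of the 37 were higher and 0 lower, beside 5.26% and 6.33% of all genes. Both culture arrays lay above both marrow arrays for 18 of the 37 and below them for 1, Cmpk2, beside 19.3% and 24.6% of all genes. Zbp1 read 0.92 (SE 0.21, adjusted p = 0.113), Ifi44 1.75 (SE 0.53, adjusted p = 0.237), Bst2 1.29 (SE 0.42, adjusted p = 0.273) and Isg20 0.63 (SE 0.21, adjusted p = 0.275). The list's median was 0.24 without deleted culture array 2. All 9 plasmacytoid dendritic cell markers, Bst2 among them, were also higher in culture here, 8 of them without overlap. The part of such cells in the results was not tested.

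Other genes of the pathway came from a list of 122, of which 97 were on the array under a single symbol and 90 were tested. The interferons themselves were mostly dim: 7 of 12 ligand genes lay under the log2 limit of 4.03 in all arrays, among them Ifnb1, the gene of interferon beta, at 2.84 to 3.29. The receptor chains and kinases were present in every array, with Ifnar1 at 7.38 to 8.23, Ifnar2 at 8.59 to 9.87, Ifngr1 at 6.94 to 8.51, Ifngr2 at 9.03 to 9.31, Jak1 at 9.15 to 9.72 and Tyk2 at 6.13 to 6.91. None of these 6 passed the test for deletion. Of the 9 receptor and kinase genes tested, 8 read lower and 1 higher in deleted cultured cells. Both deleted arrays lay below both controls for 6 and above them for 0, beside 21.8% and 22.4% of all genes. In marrow 6 of the 9 read lower, and 4 lay below both controls and 1 above, beside 17.6% and 27.3%. In culture Ifnar1 read -0.58 (SE 0.18, adjusted p = 0.194) and Jak1 -0.45 (SE 0.17, adjusted p = 0.268).

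In marrow, 0 of the 90 passed (0.131% of all genes), with 3 higher and 15 lower at an unadjusted p under 0.05 (6.64% and 5.2% of all genes). In culture, 1 rose and 4 fell, where 1.45% of all genes passed. Gbp6, a further guanylate-binding protein, rose by 1.21 (SE 0.21, adjusted p = 0.0427), from 7.79 and 7.55 in the cultured controls to 8.95 and 8.82, and its marrow difference of 1.11 (SE 0.21, adjusted p = 0.116) had the same sign. Samhd1, which depletes the nucleotides that reverse transcription needs, fell by 1.62 (SE 0.23, adjusted p = 0.0288), from 10.12 and 9.78 to 8.16 and 8.5, and read -1.56 in marrow (SE 0.23, adjusted p = 0.0715). In each of these genes the cultured groups did not overlap. Sp100, a nuclear body protein, fell by 1.64 (SE 0.25, adjusted p = 0.0342), from 9.51 and 9.30 to 7.58 and 7.94. Ptpn6, a phosphatase that restrains cytokine receptors, fell by 0.99 (SE 0.17, adjusted p = 0.0388), from 9.23 and 9.30 to 8.28 and 8.27. Slfn2 fell by 1.4 (SE 0.25, adjusted p = 0.0494), from 9.79 and 9.45 to 7.93 and 8.51. Over both conditions 2 of the 90 rose and 4 fell, where 2.86% of all genes passed. Gbp6 and Ube2l6, which encodes the conjugating enzyme of Isg15, rose, and Samhd1, Sp100, Ptpn6 and Slfn2 fell. Each of these calls was lost when some single array was left out. Ube2l6 rose by 0.50 (SE 0.10, adjusted p = 0.0494), with 6.24 and 6.25 in the marrow controls, 6.78 and 7.02 after deletion, 6.23 and 6.34 in the cultured controls and 6.64 and 6.63 after deletion, and its groups did not overlap in either condition. Beside Ube2l6, Isg15 read -0.77, as above. The 5 calls in culture were lost without any 1 of the culture arrays or the deleted marrow arrays (adjusted p = 0.0634 to 0.305) and kept without either marrow control array, and that of Ube2l6 was lost without any 1 of the 8 arrays (adjusted p = 0.0648 to 0.22).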

How the data were processed

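The authors deposited log2 values for 241576 probesets of 8 arrays, for which the submitters' processing notes name RMA (background correction, quantile normalisation and probe summary) and version 1.2.0.20 of Affymetrix Expression Console. RMA equalises the arrays' distributions, so a change shared by most genes would not be seen. The values were used as deposited. Of the probesets, 212097 carry 1 symbol in the platform annotation and were used, 4475 carry several and 25004 carry none. Gene values were median polishes over probesets. Genes above a log2 value of 4.03, the 25th percentile, in at least 2 arrays were tested. In R 4.3.3, limma 3.58.1 fitted the means of the 4 groups to the 8 arrays (files were read with version 1.17.8 of data.table), with empirical Bayes moderation (4 residual and 3.53 prior degrees of freedom), two-sided, and adjusted by Benjamini-Hochberg over all genes. The procedure was tested on simulated data.

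The members, the lists and the tests were chosen with earlier results of these data known. Array values are given for the 5 genes of the list with the lowest p per contrast among those with at least 3 probesets, for Stat2, Irf9, Irf7 and Isg15, and for other pathway genes past 0.05, with ranges for receptors and kinases. Values of Ifit3, Oas1g and Cxcl10 were added after they were seen. Alternatives covered probeset averaging, filters, centring, moderation, the arrays fitted, replicate numbers and left-out arrays. Same-numbered arrays deviated together at r = 0.34 in culture and 0.05 in marrow, so the numbers were not taken as pairs.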

Additional observations from a re-analysis of the deposited data

Results flagged for a closer look

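Of the 37 interferon response genes, 3 had both deleted arrays below both controls in marrow and above both controls in culture (8.11%, against 2.39% of all genes tested). The difference between the deletion effects, culture minus marrow, was 2.18 for Oasl2 (limma adjusted p = 0.624), 1.81 for Bst2 (adjusted p = 0.611) and 0.82 for Zbp1 (adjusted p = 0.624). None of these differences passed the test. Without marrow control array 1 and deleted culture array 2, they were 1.36, 0.72 and 1.21 in the same order. The reverse pattern was found for 0 of the 37 and 3.07% of all genes.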

How the results depend on the processing

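Over the 6 contrasts, 80 of 110 recomputed counts of passing genes and 102 of 110 recomputed medians stayed close to the reported ones. The cause of the moves was not tested. When each array was left out in turn, the count of passing genes of the list lay between 0 and 3 for deletion in marrow (3 without marrow control array 2: Cxcl10, Ifih1 and Oas1g), 0 and 1 for the difference, 0 and 1 over both conditions, 0 and 2 for culture against marrow in control cells and 0 and 1 in deleted cells. The medians lay between -0.18 and 0.46 for deletion in culture, 0.43 and 0.84 for the difference and 0.24 and 0.79 for culture against marrow in deleted cells, Irf9 in marrow between -0.33 and 0.08, and Irf7 in culture between -0.10 and 1.14. Without both culture arrays numbered 2, the median for deletion in culture was -0.17, and Irf7 read -0.08 and Stat2 -0.03 there. The median for culture against marrow in deleted cells was then 0.24. A further alternative, chosen after seeing the data, left out both marrow control array 1 and deleted culture array 2. Its medians were -0.18 for deletion in culture, 0.17 for the difference and 0.24 for culture against marrow in deleted cells. Irf7 in culture read -0.10 there. Over both conditions the count was 0 with no filter on dim genes, and 2 (Ddx58 and Oas1g) with a filter at the 50th percentile or with robust moderation. With the mean of probesets it was Oas1g, not Ddx58, that passed, Stat2 in culture read -0.01, and the count for culture against marrow in deleted cells was 0, as it was in a fit of only the 4 arrays of these groups.

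The replicate numbers are only shared numbers. With the replicate block, the counts were 0 over both conditions and 0 for culture against marrow in deleted cells, and with the replicate block within condition 1 gene, Ifi44, passed for deletion in culture (adjusted p = 0.0299). With 2 arrays per group, differences of the sizes seen here are not resolved for most genes of the list, and dim genes such as Mx1 lie near the background limit.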

Other observations

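The 8 probesets that name Oas1a and Oas1g together, which were in no comparison, had a log2 value, as a median polish over them, of 7.61 and 6.72 in the marrow controls, 6.24 and 7.05 after deletion in marrow, 6.33 and 6.04 in the cultured controls and 6.72 and 7.74 after deletion in culture. In marrow the groups overlapped, and in culture both deleted arrays were above both controls.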
